A study of Arabidopsis thaliana with 4 samples.

Results

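The loci described here are annotated loci in the gene-poor blocks around the centromeres of chromosomes 2 and 3 and in the block of chromosome 4 that holds its centromere and the heterochromatic knob of its short arm. They were taken by identifier from the deposited table: AT2G10000 to AT2G14500, AT3G30000 to AT3G33999, AT3G42000 to AT3G43999 and AT4G03500 to AT4G08999, with at least 10 reads summed over the 4 libraries. MIR396a, MIR397a and PSBQ-2 lie in these ranges and were left out, 2 of them miRNA genes and the third a photosystem gene. Of 2406 other identifiers in the ranges, 234 had no read, 978 had 1 to 9 reads and 1194 were members. The whole table holds 33602 loci, and 10247 of them reached 10 reads. Since the members were chosen by their summed reads, the level of that sum is a description and supports nothing.

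Aerial parts of Arabidopsis thaliana, 18 days old and kept at 22 °C with 16 h of light, gave the RNA below 200 nt that was sequenced. Each of the 4 genotypes had 1 library. Col-0 served as wild type. In ein5-1 ski2-3 plants, here the double mutant, mutations hit EIN5, a cytoplasmic exonuclease that degrades RNA from the 5′ end, and SKI2, a helicase that feeds RNA to the cytoplasmic exosome. The rdr6-11 allele affects RDR6, a polymerase that copies transcripts into double-stranded RNA. The rdr6-11 ein5-1 ski2-3 line, here the triple mutant, carries all these alleles. Library totals in the table were 808276 reads (Col-0), 621515 (double mutant), 878632 (rdr6-11) and 877589 (triple mutant), the order in which 4 values of a locus are given below. With 1 library per genotype there is no replicate error and no test, and every interval printed is an exact 95% interval that covers counting error only.

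Pericentromeric heterochromatin of Arabidopsis is dense in transposable elements and their remnants. In RNA-directed DNA methylation, RNA polymerase IV transcribes such loci, RDR2 makes the transcript double-stranded, and DCL3 cuts it into siRNAs that AGO4 carries to chromatin, where DRM2 methylates the DNA. RDR6 acts instead mostly on transcripts of RNA polymerase II, such as TAS precursors, cleaved mRNAs and active transposons. EIN5 and SKI2 remove mRNA fragments in the cytoplasm, and in their absence such fragments can become templates of RDR6.

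The annotation fits the label of the ranges. Of the 1194 members, 1019 (85.3%) are pseudogenes, the RefSeq class in which transposable element genes of Arabidopsis are listed, compared with 24.9% of all loci with at least 10 reads. Another 165 are protein-coding. The last 10, called other below, are tRNA, snoRNA, miRNA, lncRNA and ncRNA genes and 4 members that the annotation does not list, whose class is unknown. The ranges held 268 members on chromosome 2, 264 and 195 on chromosome 3, and 467 on chromosome 4. Small RNA reads were also counted at marker genes of tissues. The 4 leaf genes all had at least 10 reads, with most of the reads at LHCA4. The 4 root genes had 0 to 2 reads summed per library, and the 4 flower genes had 1 to 11. Such reads do not measure mRNA levels, so the tissue label was not tested. Chloroplast loci took 9.57%, 9.81%, 21.2% and 27.1% of the reads, which alone lowers the share left to other loci. The part of that difference in the results below was not tested.

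Some members hold sequence that other small RNA sources also hold, and these are shown because reads from the other source would be counted at the member too. Coordinates are those of the TAIR10.1 genome from RefSeq, matched by locus identifier. AT2G10735 on chromosome 2 contains a whole snoRNA gene, AT2G05565 (chr2:4224882-4224967, minus strand), which has no row of its own in the table. AT3G32990 on chromosome 3 holds stretches identical to the chloroplast genome, the longest of 54 nt (chr3:13536637-13536690, minus strand). AT4G04409 on chromosome 4 overlaps MIR841b and holds a sequence annotated as a mature miRNA, in capitals below (chr4:2184405-2184455, plus strand, 15 bases on each side).
AT2G05565: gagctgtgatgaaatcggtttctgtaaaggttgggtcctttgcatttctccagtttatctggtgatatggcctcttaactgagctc
AT3G32990: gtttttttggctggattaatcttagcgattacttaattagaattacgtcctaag
AT4G04409: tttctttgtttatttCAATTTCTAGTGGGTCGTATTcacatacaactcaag

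AT4G06477 is shown because it held between 25.9% and 30.1% of the member reads of each library. Its longest internal repeat is 54 nt, present at chr4:3060975-3061028 and again 496 bases on at chr4:3061471-3061524, both on the minus strand. The same 54 nt occur 13 times in the genome.
AT4G06477: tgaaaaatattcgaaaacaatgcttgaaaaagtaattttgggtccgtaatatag

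Long terminal repeat retrotransposons start reverse transcription from a tRNA that pairs with a primer binding site. The motif TGGTATCAGAGC, complementary to the 3′ end of initiator tRNA-Met and read on both strands, occurred in 13 members (1.09%) and in 0.480% of all loci with at least 10 reads. Among pseudogenes it occurred in 1.18% of the members, 0.826% of those on chromosomes 1 and 5 and 1.94% of those elsewhere. A match is a description, not a mapped site. The 3 members with the motif that had most reads are shown with the motif in capitals and 15 bases on each side, at chr3:12854738-12854779 on the plus strand (AT3G31630), chr4:3326187-3326228 on the minus strand (AT4G06527) and chr3:14397598-14397639 on the minus strand (AT3G42240). The 2 mature miR845 sequences, one of which is known from pollen to act on such sites, are shown beneath with the seed, bases 2 to 8, in capitals.
AT3G31630: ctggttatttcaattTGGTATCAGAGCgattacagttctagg
AT4G06527: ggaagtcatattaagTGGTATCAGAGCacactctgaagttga
AT3G42240: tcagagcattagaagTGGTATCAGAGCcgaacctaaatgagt
MIR845b: tCGCTCTGataccaaattgatg
MIR845a: cGGCTCTGataccaattgatg

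The window of AT3G31630 held a run of 20 bases complementary to the 22-nt MIR845b sequence, and those of AT4G06527 and AT3G42240 held 12. Against MIR845a, of 21 nt, the runs were 13, 12 and 14. MIR845b itself had no read in any library, and MIR845a had 2, 44, 4 and 12 reads, most of them in the double mutant. The 13 members with the motif summed to 309, 149, 338 and 244 reads. Scaled to the table total of each library (RPM) that was 0.627-fold (0.512 to 0.765) in the double mutant over Col-0, and 0.723-fold (0.610 to 0.855) in the triple mutant over rdr6-11. AT3G31630 had 79, 26, 65 and 49 reads in the same order, AT4G06527 had 54, 17, 93 and 52, and AT3G42240 had 64, 39, 56 and 48.

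Together the members took 22953, 12222, 25734 and 20003 reads. As shares of the library these were 2.84% (2.80 to 2.88), 1.97% (1.93 to 2.00), 2.93% (2.89 to 2.96) and 2.28% (2.25 to 2.31). The double mutant stood at 0.692-fold (0.677 to 0.708) of Col-0, and the triple mutant at 0.778-fold (0.764 to 0.793) of rdr6-11. With miRNA genes as the scale, the triple mutant stood above rdr6-11, at 1.14-fold. The rdr6-11 library stood at 1.03-fold (1.01 to 1.05) of Col-0, at 1.00-fold under median-of-ratios scaling, at 1.18-fold with miRNA genes as the scale, and at 1.12-fold without the 5 members of most reads. The triple mutant stood at 1.16-fold (1.13 to 1.19) of the double mutant, which differs from it by the rdr6-11 allele, and at 1.99-fold with miRNA genes as the scale.

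The lower share in both lines with ein5-1 and ski2-3 was seen at the summed pseudogenes and not at the summed protein-coding members, on the scale of table totals. The 1019 pseudogene members took 2.68%, 1.75%, 2.73% and 2.07% of the reads. That is 0.653-fold (0.638 to 0.668) in the double mutant over Col-0 and 0.760-fold (0.745 to 0.774) in the triple mutant over rdr6-11, the latter 1.11-fold with miRNA genes as the scale. The 165 protein-coding members took 0.138%, 0.209%, 0.181% and 0.196%, or 1.51-fold (1.39 to 1.63) in the double mutant over Col-0. That higher sum rested on 2 genes described further on, MEE38 and ERD5: without them it was 1.01-fold (0.922 to 1.11). In the triple mutant over rdr6-11 the protein-coding members stood at 1.08-fold (1.01 to 1.16), and at 0.947, 0.903 and 0.821 when scaled by the median of ratios, by TMM or by totals without structural, miRNA, TAS and organelle classes. The 10 other members took 0.0212%, 0.00756%, 0.0190% and 0.0104% of reads.

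**Figure D1:**
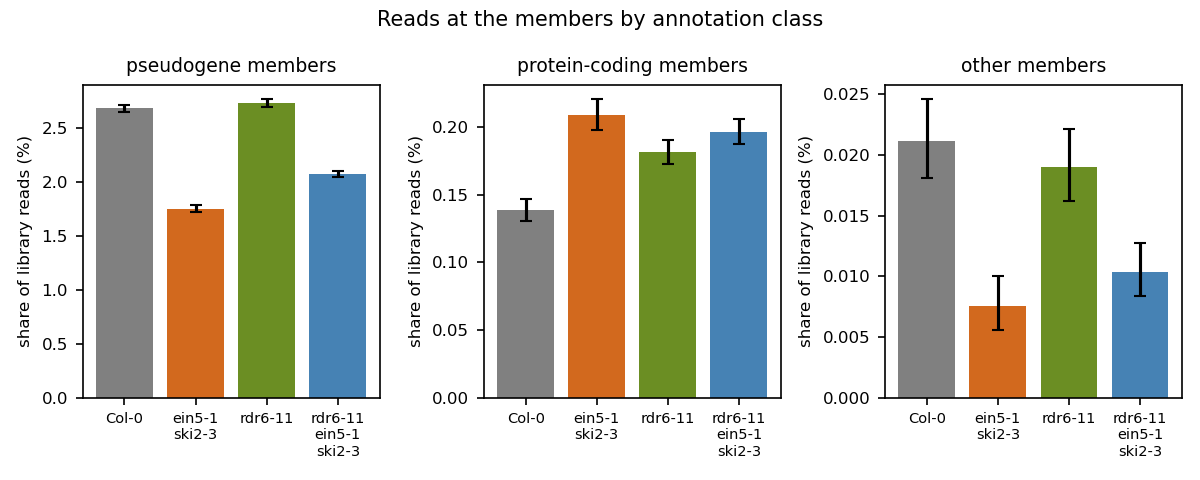
Share of all reads of each library (%, y axis) at the members of each annotation class, with 1 bar per library and exact 95% counting intervals. The pseudogene bars of the double mutant (1.75%) and the triple mutant (2.07%) lie below those of Col-0 (2.68%) and rdr6-11 (2.73%). The order of the triple mutant and rdr6-11 turns when reads at miRNA genes set the scale. The protein-coding bar is highest in the double mutant (0.209%).

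Locus by locus, 66.2% of the pseudogene members lay below zero in the double mutant over Col-0 and 72.4% in the triple mutant over rdr6-11, on the scale of table totals, and 49.7% lay below zero in both. Their median log2 fold, with 1 read added, was -0.43 in the double mutant over Col-0 and -0.51 in the triple mutant over rdr6-11, where all loci with at least 10 reads had medians of 0.38 and 0.42. The median of the protein-coding members was 0.06 and 0.19, which turned to -0.13 and -0.00056 under the median of ratios, -0.24 and -0.07 under TMM, and -0.48 and -0.21 under totals without structural, miRNA, TAS and organelle classes. For comparison, the median of protein-coding loci elsewhere was 1.12 and 1.10. Pseudogenes in the corresponding identifier ranges of chromosomes 1 and 5 gave -0.43 and -0.51, and pseudogenes elsewhere gave -0.47 and -0.49. With reads at miRNA genes as the scale, 0.55 would be added to every value of the triple mutant over rdr6-11, which takes the pseudogene medians above zero. In rdr6-11 over Col-0 the median was 0.14 for pseudogene members, 0.14 on chromosomes 1 and 5 and -0.11 elsewhere, beside -0.12 for all loci.

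**Figure D2:**
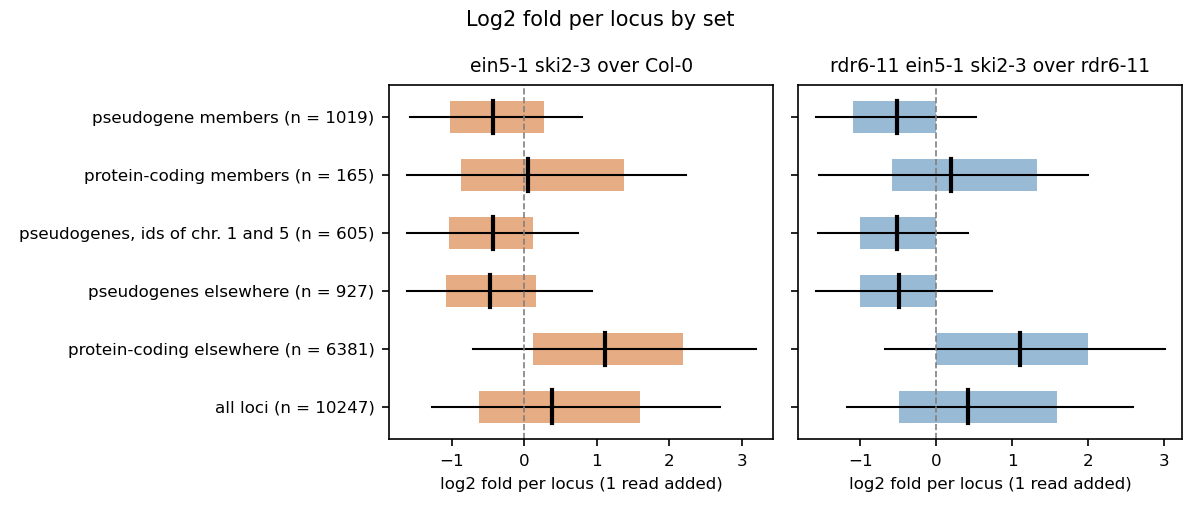
Log2 fold per locus with 1 read added to each library (x axis), for 6 sets of loci with at least 10 reads (y axis), in the double mutant over Col-0 and the triple mutant over rdr6-11. Boxes reach from the lower to the upper quartile, thick bars mark medians and lines reach from the 10th to the 90th percentile. The 3 sets of pseudogenes have medians from -0.51 to -0.43, and protein-coding loci elsewhere have medians of 1.12 and 1.10; reads at miRNA genes as the scale would move the triple mutant panel right by 0.55, past zero for the pseudogenes.

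Over all 1194 members, 64.1% lay below zero in the double mutant over Col-0, where 39.7% of all loci did. The share was 68.2% in the triple mutant over rdr6-11 (36.6% of all loci). It was 44.0% in rdr6-11 over Col-0 (52.1%) and 48.8% in the triple over the double mutant (50.3%). The like sets had somewhat larger shares below zero than the members in both comparisons that add ein5-1 and ski2-3. Identifiers of chromosomes 1 and 5 had 68.5% below zero in the double mutant over Col-0 and 70.8% in the triple mutant over rdr6-11. Pseudogenes elsewhere had 69.3% and 71.1%.

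The double mutant over Col-0 and the triple mutant over rdr6-11 share no library, so their folds could be set side by side. Of the 1194 members, 562 (47.1%) lay below zero in both and 177 (14.8%) above zero in both, compared with 22.6% and 46.3% of all loci with at least 10 reads. Across members the log2 folds had a Pearson correlation of 0.25 and a Spearman correlation of 0.14 (n = 1194), and across the 1019 pseudogene members 0.09 and 0.04. Of the pseudogene members 506 lay below zero in both and 112 above zero in both. Among the 165 protein-coding members the correlations were 0.49 and 0.48. These are descriptions over loci of 4 libraries, and most members had few reads: the median was 27 over the 4 libraries, 438 had 10 to 19, 454 had 20 to 49 and 302 had at least 50.

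On that scale the same direction held at each level of read support. Pseudogene members with 10 to 19 reads stood at 0.765-fold (0.701 to 0.835) in the double mutant over Col-0, those with 20 to 49 at 0.768, those with 50 to 99 at 0.694 and the 89 with 100 to 999 at 0.567 (0.540 to 0.596). These classes stood at 0.622, 0.677, 0.713 and 0.685 in the triple mutant over rdr6-11. The 3 pseudogenes with more than 1000 reads stood at 0.623 (0.600 to 0.648) and 0.917 (0.888 to 0.947). The protein-coding members had no single direction over these classes: in the double mutant over Col-0 they stood at 1.16-fold with 10 to 19 reads, 1.44-fold with 20 to 49, 0.535-fold (0.393 to 0.723) for the 10 genes with 50 to 99, and 2.41-fold for the 8 with 100 to 999, which include MEE38 and ERD5.

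Neighbouring members were then summed in 23 groups, 22 of them of 50 loci and the last of the second chromosome 3 range of 43, in chromosome order. The 51 members left over at the ends of the ranges, in runs under 20, or with no position in the annotation were in no group. In the double mutant over Col-0, 22 of the 23 groups lay below 1, and the median group was at 0.722-fold. The lowest, AT3G32164 to AT3G32990 near the centromere of chromosome 3, stood at 0.389-fold (0.344 to 0.439). It holds AT3G32990, and without that locus it stood at 0.531-fold (0.464 to 0.606), still the lowest of the groups when each was taken without its largest member. The highest, AT3G43000 to AT3G43520, stood at 1.33-fold (1.19 to 1.49), and without MEE38 at 0.646-fold (0.559 to 0.745). With the largest member of each group left out, all 23 groups lay between 0.531 and 0.937. In the triple mutant over rdr6-11 all 23 groups lay below 1, from 0.603 (AT4G07733 to AT4G08096) to 0.947 (AT2G10030 to AT2G10780), on the scale of table totals. The latter group stood at 0.818-fold without AT2G10735. With the largest member of each group left out, these folds lay between 0.611 and 0.873. In rdr6-11 over Col-0 the groups ran from 0.784 to 1.32, and 4 lay below 1.

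**Figure D3:**
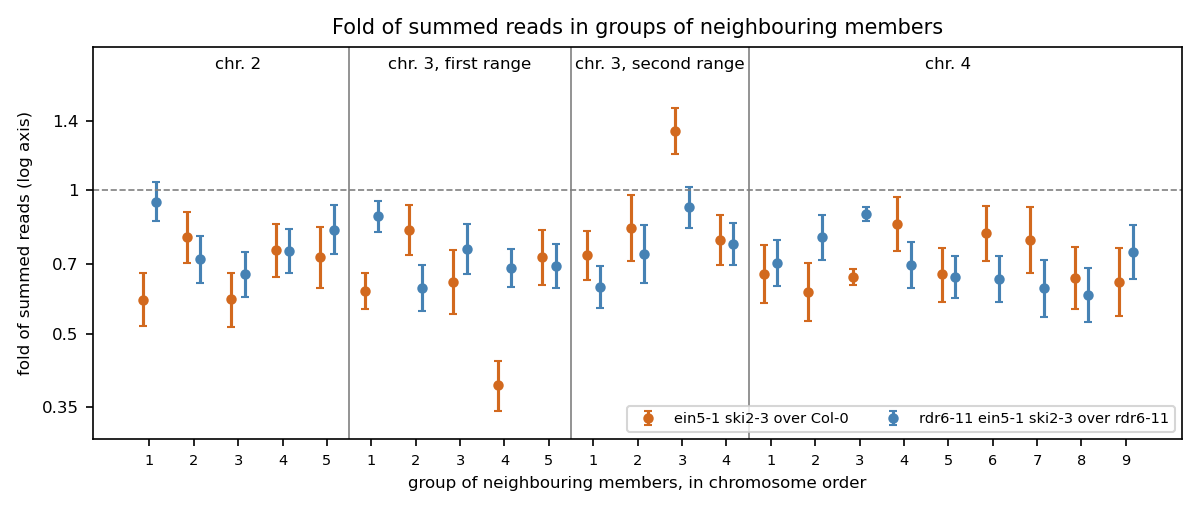
Fold of summed RPM (log2-spaced y axis) in 23 groups of neighbouring members along the 4 identifier ranges (x axis, chromosome order), with exact 95% counting intervals. Orange points are the double mutant over Col-0, with extremes of 0.389 and 1.33, and blue points are the triple mutant over rdr6-11, all between 0.603 and 0.947; scaling to reads at miRNA genes would multiply every blue point by 1.46.

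By identifier range, the pseudogene members stood at 0.680-fold on chromosome 2, 0.575 and 0.710 in the first and second range of chromosome 3, and 0.666 on chromosome 4, in the double mutant over Col-0. The values for the triple mutant over rdr6-11 were 0.759, 0.736, 0.689 and 0.785. Chromosome 4 without AT4G06477 stood at 0.719-fold for all members in the first comparison and 0.693-fold in the second. The protein-coding members of the second chromosome 3 range, which include MEE38, stood at 3.15-fold (2.68 to 3.71) in the double mutant over Col-0.

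Repetitive sequence makes the placing of a read uncertain, and how reads with several matches were treated is not given in the sources used here. Of the 24-nt windows of a member, a median of 70.1% occurred once in the genome, with 65.0% for pseudogene and 98.0% for protein-coding members. Pseudogene members other than AT4G06477 were split by that share. In the double mutant over Col-0 the classes from 0 to 25, 25 to 50, 50 to 75 and 75 to 100% unique windows stood at 0.635, 0.668, 0.642 and 0.663-fold. For the triple mutant over rdr6-11 they stood at 0.731, 0.719, 0.719 and 0.671-fold. The fold was thus about as low in the 379 loci of mostly unique sequence, at 0.663 (0.632 to 0.696), as in the 92 of mostly repeated sequence, at 0.635 (0.588 to 0.685). AT3G30665, described further on, held 1081 of the 2079 Col-0 reads of the most repeated class. Without it that class stood at 0.715-fold (0.643 to 0.795) in the double mutant over Col-0 and 0.628-fold (0.575 to 0.685) in the triple mutant over rdr6-11. Its summed RPM per kilobase in Col-0 was 8.88 with that locus and 4.28 without it, beside 5.08, 6.49 and 5.30 in the classes of more unique sequence.

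**Figure D4:**
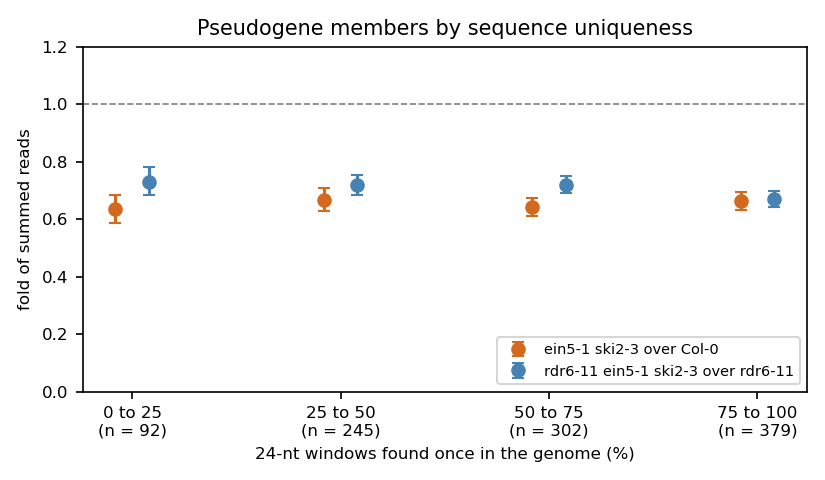
Fold of summed RPM (y axis, from 0) of pseudogene members without AT4G06477, split by the share of their 24-nt windows that occur once in the genome (x axis, %), with exact 95% counting intervals. The double mutant over Col-0 lies between 0.635 and 0.668 and the triple mutant over rdr6-11 between 0.671 and 0.731 in all 4 classes; scaling to reads at miRNA genes would multiply the latter by 1.46.

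Single loci were called by size: at least 4-fold with 1 read added, and at least 50 reads in the higher library. In the double mutant over Col-0, 2 members were called higher and 3 lower, or 0.168% and 0.251%, where 1.71% and 0.576% of all 10247 loci were called. In rdr6-11 over Col-0 1 was called higher and 0 lower, with a background of 0.107% and 0.215%. In the triple mutant over rdr6-11 no member was called in either direction, with a background of 1.15% higher and 0.0293% lower. In the triple over the double mutant 3 were called higher and 1 lower, with a background of 0.956% and 1.02%. Few members could be called, since 57 of the 1194 had 50 reads in any library, beside 874 of all loci. Each of the 10 calls held under all 4 other scalings. AT2G10735, AT3G32990 and ERD5 were called both in the double mutant over Col-0 and in the triple over the double mutant. Those comparisons share the double mutant library, so such pairs of calls are not independent.

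A second rule counted members whose own 95% counting interval of the fold left out 1. In the double mutant over Col-0 it took 156 members as lower and 39 as higher, where 7.94% and 18% of all loci were so taken. Among pseudogene members these were 141 (13.8%) and 22 (2.16%). The share taken as lower was 13.1% of all members, 10.9% of the identifiers of chromosomes 1 and 5, and 13.3% of pseudogenes elsewhere. In the triple mutant over rdr6-11 it took 169 as lower and 41 as higher, with 6.51% and 21.3% over all loci, and among protein-coding members 17 as lower and 27 as higher. In rdr6-11 over Col-0 it took 28 as lower and 77 as higher, with 4.38% and 5.14%. In the triple over the double mutant it took 62 as lower and 92 as higher, with 10.6% and 11.5%. Lower in both comparisons that add ein5-1 and ski2-3 were 51 members (4.27%), higher in both 12 (1.01%), and opposite 3 (0.251%). Over all loci these shares were 2.42%, 8.82% and 0.81%.

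Among the pseudogenes, AT4G06477 was by far the largest source of reads. It had 6653, 3336, 6657 and 6014 reads, which is 29.0%, 27.3%, 25.9% and 30.1% of the member reads. At 8231, 5368, 7577 and 6853 RPM it was lowest in the double mutant, at 0.652-fold (0.625 to 0.680) of Col-0. The triple mutant stood at 0.904-fold (0.873 to 0.937) of rdr6-11. By length it was also highest, with an RPKM of the authors of 1860 in Col-0, where the median member with reads had 3.60.

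AT3G30665, a pseudogene of 914 bp of which 9.99% of the windows are unique, had 1081, 466, 717 and 660 reads in the same order. It was highest in Col-0, and the other 3 libraries lay close together at 750, 816 and 752 RPM against 1337. Its folds were 0.561 (0.502 to 0.626) for the double mutant and 0.610 (0.554 to 0.671) for rdr6-11, both over Col-0, so here the rdr6-11 library was also lower. Those comparisons share the Col-0 library.

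AT2G10735, the locus with the snoRNA gene shown above, had 286, 43, 388 and 433 reads. It was low in the double mutant, at 69.2 RPM. The levels in Col-0, rdr6-11 and the triple mutant were 354, 442 and 493 RPM. The double mutant stood at 0.196-fold (0.138 to 0.270) of Col-0, and the triple at 7.13-fold (5.206 to 9.998) of the double mutant. Small RNA from the snoRNA and from the rest of the locus could not be told apart in these counts.

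AT3G32990, with the chloroplast stretches shown above, had 403, 37, 275 and 231 reads. It too was low in the double mutant, at 0.119-fold (0.0829 to 0.167) of Col-0, while the triple mutant stood at 0.841-fold (0.703 to 1.01) of rdr6-11. Nearby AT3G33004, with a chloroplast run of 95 nt, had 23, 2, 38 and 36 reads, and AT3G33002, with one of 76 nt, had 10, 6, 25 and 32. Both names were picked with values known. The 11 members that share a 24-nt window with the chloroplast genome summed to 578, 84, 486 and 452 reads, or 0.189-fold (0.149 to 0.238) in the double mutant over Col-0. Without AT3G32990 the other 10 had 175, 47, 211 and 221 reads, or 0.349-fold (0.248 to 0.484). All chloroplast loci together took nearly the same share in those libraries, as given above.

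Counted over all other small RNA sources, 76 members share at least 1 such window, 56 of them with a miRNA gene, 11 with the chloroplast genome, 8 with the mitochondrial genome, 3 with a snoRNA gene and 2 with a tRNA gene. Without these 76, the members stood at 0.706-fold in the double mutant over Col-0 and 0.777-fold in the triple mutant over rdr6-11. AT4G04409, the locus with the annotated miRNA shown above, had 91, 29, 115 and 74 reads. On the scale of table totals it was lower in both lines with ein5-1 and ski2-3. Its neighbour AT4G04408, which also overlaps MIR841b, had 20, 19, 21 and 39.

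AT3G30844, the third pseudogene called lower, had 70, 11, 66 and 40 reads. It was lowest in the double mutant, at 0.204-fold (0.0976 to 0.388) of Col-0, and the triple mutant stood at 0.607-fold (0.399 to 0.912) of rdr6-11. AT3G31920, called higher in the triple over the double mutant, had 23, 9, 59 and 59 reads. It was high in both lines with rdr6-11 and low in both with RDR6 intact, and the triple mutant stood at 4.64-fold (2.29 to 10.7) of the double mutant. These 2 loci share no window with another annotated small RNA source.

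The remaining pseudogenes of most reads mostly followed the sum. AT2G12440 had 276, 125, 304 and 173 reads, AT3G43730 had 223, 78, 296 and 201, and AT3G42433 had 213, 95, 205 and 121. All 3 were lower in both lines with ein5-1 and ski2-3 than in the matching line without them, on the scale of table totals. Reads at miRNA genes as the scale would multiply the triple mutant over rdr6-11 by 1.46, which takes AT3G43730 from 0.680 to near 1. AT4G05585 had 121, 47, 115 and 99 reads and AT2G13080 had 87, 50, 136 and 106. Both had intervals that include 1 for the triple mutant over rdr6-11, and AT2G13080 also for the double mutant over Col-0 (0.517 to 1.07). AT2G11450 had 99, 138, 108 and 81 reads. It went against that direction in the double mutant, where it was highest, at 1.81-fold (1.39 to 2.37) of Col-0. The triple mutant stood at 0.751-fold (0.556 to 1.01) of rdr6-11. AT3G43828 had 127, 128, 135 and 98 reads, 1.31-fold (1.02 to 1.69) in the double mutant over Col-0 and 0.727-fold (0.555 to 0.950) in the triple mutant over rdr6-11.

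**Figure D5:**
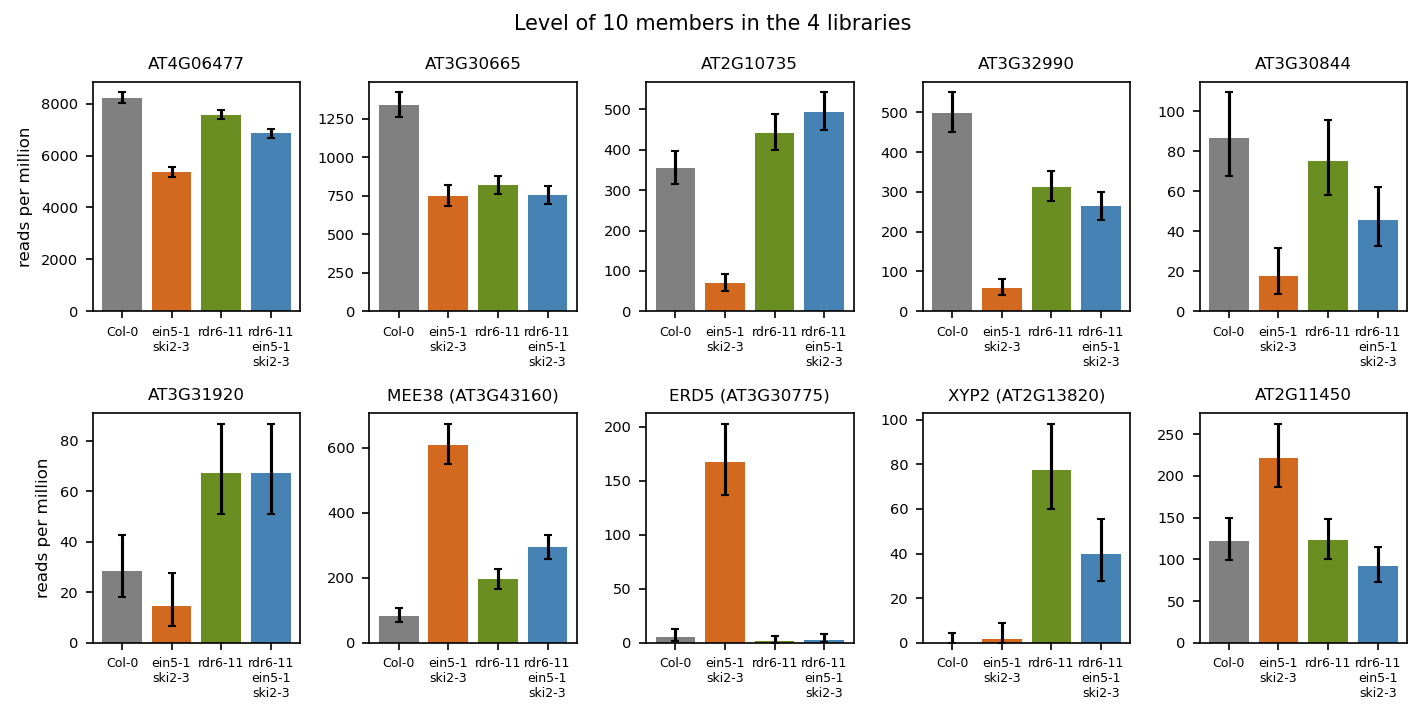
RPM (y axis, each panel on its own scale from 0) of 10 members in the 4 libraries, with exact Poisson 95% counting intervals. AT2G10735, AT3G32990 and AT3G30844 are low in the double mutant, MEE38, ERD5 and AT2G11450 are high there, and AT3G31920 and XYP2 are high in the 2 libraries with rdr6-11.

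Among the protein-coding members, ERD5 (AT3G30775) encodes proline dehydrogenase, the first enzyme of proline breakdown in mitochondria. It had 4, 104, 1 and 2 reads. Its reads were thus high in the double mutant and near the level of single reads in the other libraries. It reached the minimum of 10 reads only through the double mutant, so its high level there partly follows from the choice of members. ERD5 is 1 of 38 members with at least 10 reads in 1 library only and under 10 in the other 3 together. The double mutant stood at 33.8-fold (12.8 to 126) of Col-0, and the triple mutant at 0.0136-fold (0.00163 to 0.0504) of the double mutant. All its 24-nt windows occur once in the genome.

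MEE38 (AT3G43160), named from a screen for maternal-effect embryo arrest, had 67, 378, 171 and 257 reads. It was highest in the double mutant and lowest in Col-0. The double mutant stood at 7.34-fold (5.65 to 9.66) of Col-0, rdr6-11 at 2.35-fold (1.76 to 3.16) of Col-0, and the triple mutant at 1.50-fold (1.24 to 1.84) of rdr6-11 and 0.482-fold (0.409 to 0.566) of the double mutant. Of its windows 88.5% are unique, so part of its reads may belong to a similar locus.

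XYP2 (AT2G13820), a xylogen-like arabinogalactan protein gene, had 0, 1, 68 and 35 reads. It reached the minimum of 10 reads only through the libraries with rdr6-11, so its high level there partly follows from the choice of members. With Col-0 set at the limit of 3 reads that a count of 0 allows, rdr6-11 stood at least 20.9-fold higher by its count alone, and the exact interval of the fold, which covers the counting error of both libraries, starts at 16.5. The RPKM of the authors imply a locus length of 2143 bp in the double mutant library, from its 1 read, and 1038 bp in rdr6-11, while none follows from Col-0 with no read. The length counted therefore differed between these libraries, and the part of this in the difference was not tested. Between the Col-0 and double mutant libraries on one side and the others on the other, such a difference occurred at 10 members, all protein-coding.

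Other protein-coding members had fewer reads and were named after their values were seen. APR1, an enzyme of sulfate reduction, had 1, 25, 4 and 17 reads and UBQ10, a polyubiquitin gene, had 2, 14, 1 and 9, both higher in the double and triple mutants than in the matching line without ein5-1 and ski2-3. TPC1, a vacuolar calcium-permeable channel, had 16, 10, 16 and 46, AGT, an aminotransferase of photorespiration, had 7, 7, 15 and 37, and GSL05, a callose synthase, had 5, 3, 19 and 33, all highest in the triple mutant. CRK40, a cysteine-rich receptor-like kinase gene, had 59, 14, 84 and 47, AT2G14000 had 48, 12, 43 and 5, and AT3G30820 had 29, 6, 39 and 1. These 3 were lower in both lines with ein5-1 and ski2-3, on the scale of table totals.

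Of the 31 genes listed for siRNA production and DNA methylation, 12 had at least 10 reads and none was called in any comparison. The list has 2 genes in the identifier ranges, CLSY1, a chromatin remodeller that works with RNA polymerase IV, and DCL3. Neither was a member: CLSY1 had 0, 4, 0 and 0 reads and DCL3 had 1, 0, 0 and 3. The small RNA reads of the list say nothing of its mRNA levels.

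At the minimum of 10 reads, 60 members had exactly 10 and 71 identifiers just outside had 9. Just inside were AT2G10140 with 3, 1, 5 and 1 reads and AT2G10510 with 9, 0, 1 and 0. Just outside were AT2G10010 with 3, 3, 2 and 1 and AT2G11290 with 6, 1, 1 and 1. The identifiers with 1 to 9 reads held 4190 reads in all, beside 80912 at the members.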

How the data were processed

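Small RNA was sequenced from 1 library per genotype, and the genotype labels gave the groups. For each of 33602 loci the deposited table gives a read count and an RPKM value, which divides by length and depth, as the authors made them, per the file headers. Tools and build, per the submitters' processing notes, include CASAVA 1.8.2, BWA and TAIR9, with no roles stated. Not given in the sources used here are trimming, the treatment of reads with several matches, strand and read size, so siRNAs and pieces of longer RNAs were not separated, and overlapping or antisense genes (53 members overlap another gene) could not be told apart. Where nothing says otherwise a library may be 1 pool or 1 plant.

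Counts were used as deposited, scaled to the table total per library. Dividing counts by RPKM gave locus lengths equal, within 0.5 bp, to TAIR10.1 end minus start at 1008 of 1017 pseudogene members with reads. That is why TAIR10.1 sequence was used. Identifiers were matched to the RefSeq TAIR10.1 annotation (1190 of 1194). Summed folds and shares carry exact 95% intervals (Clopper-Pearson, conditional binomial for folds), with no pseudocount, while medians and calls add 1 read per library. Intervals cover counting error only, since each genotype had 1 library. They treat reads as independent, and PCR copies are not independent molecules, so they may be too narrow even for that error. The floor of a library at 0 was 3 reads (3.71 RPM in Col-0). No p-value was computed. The rule of size was tested on simulated counts, with changes placed at well-covered loci only. Named are up to 8 members called per comparison and direction, the 12 members of most RPM, members of the siRNA and DNA methylation list, and 4 loci on each side of the read minimum, of which a pair is printed. Members, lists and tests were chosen with earlier results of these data known. Tools were Python 3.11.15, numpy 2.4.6, pandas 2.3.3, scipy 1.17.1, pysam 0.24.0, and edgeR 4.0.16 in R 4.3.3 for TMM factors only.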

Additional observations from a re-analysis of the deposited data

Results flagged for a closer look

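On the scale of table totals, AT3G43828 went in opposite directions in the 2 comparisons that add ein5-1 and ski2-3. It stood at 1.31-fold (1.02 to 1.69) in the double mutant over Col-0 and at 0.727-fold (0.555 to 0.950) in the triple mutant over rdr6-11. The opposition depends on the scale. Reads at miRNA genes would multiply the second fold by 1.46, which takes it above 1. Totals without structural, miRNA, TAS and organelle classes would multiply the first by 0.688, which takes it below 1. The difference between these folds was not tested.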

How the results depend on the processing

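Comparisons are numbered 1 (double mutant over Col-0), 2 (rdr6-11 over Col-0), 3 (triple mutant over rdr6-11) and 4 (triple over double mutant). Values follow in that order. For results over all members, a value not given moved within its counting interval or, for a count, within 1.5 times. Against table totals, all log2 folds moved by -0.19, -0.04, -0.19 and -0.05 under the median of ratios, by -0.30, -0.03, -0.26 and 0.00 under TMM, by -0.04, 0.20, 0.55 and 0.78 under reads at miRNA genes, and by -0.54, -0.02, -0.40 and 0.12 under totals without miRNA, TAS, structural RNA and organelle loci. The fold of summed member reads became 0.607, 1.00, 0.680 and 1.12 with the median of ratios, where comparison 2 crossed 1 at 0.99997. It became 0.562, 1.01 and 0.649 in 1 to 3 with TMM, and 0.675, 1.18, 1.14 and 1.99 with reads at miRNA genes, where comparison 3 crossed 1. With the reduced totals it became 0.476, 0.590 and 1.26 in 1, 3 and 4. Without the 5 members of most reads it was 0.750, 1.12, 0.719 and 1.08, without AT4G06477 0.709, 1.08, 0.734 and 1.11, and without protein-coding members 0.651 and 0.758 in 1 and 3. Without the members sharing windows with other sources it was 1.13 in 4. The median log2 fold of the members, -0.40, 0.14, -0.48 and 0.07, became -0.59, 0.10, -0.68 and 0.019 with the median of ratios, -0.70, 0.11 and -0.75 in 1 to 3 with TMM, -0.43, 0.34, 0.062 and 0.85 with reads at miRNA genes, and -0.94, -0.88 and 0.18 in 1, 3 and 4 with reduced totals. A minimum of 20 reads gave -0.50, 0.17 and 0.15 in 1, 2 and 4, a minimum of 1 read gave -0.21, -0.12, -0.36 and -0.31, and a pseudocount of 5 gave -0.080, 0.050, -0.32 and -0.18. The sign of the median turned in 3 with miRNA reads, in 2 and 4 with the 1-read minimum, and in 4 with the larger pseudocount. Members called, 5, 1, 0 and 4, became 25, 4, 11 and 13 at 2-fold, 16, 4, 12 and 15 with 20 reads in the higher library, 2 and 1 in comparisons 1 and 4 at 8-fold, and 0 in comparison 2 with 100 reads. Reduced totals called 15 and 2 in comparisons 1 and 3, the median of ratios and TMM 1 each in comparison 3, miRNA reads 8 in comparison 4 and the pseudocount of 5 called 2 there. The share of reads, with libraries in the order used above, was 18.0%, 8.60%, 18.3% and 10.8% of the reduced totals, 2.63%, 1.79%, 2.71% and 2.12% with a 20-read minimum and 2.99%, 2.10%, 3.07% and 2.38% with a 1-read minimum. The summed protein-coding members stood at 0.941 in the triple over the double mutant, at 1.13 without MEE38 and at 1.27 without MEE38 and ERD5. Without MEE38 the neighbours AT3G43000 to AT3G43520 turned from 1.33 to 0.646 in comparison 1 and moved from 0.922 to 0.774 in comparison 3. Without AT2G10735 the neighbours AT2G10030 to AT2G10780 moved from 0.589 to 0.823 in comparison 1 and from 0.947 to 0.818 in comparison 3. Without AT3G30665 the neighbours AT3G30110 to AT3G30695 moved from 0.615 to 0.715 in comparison 1. Without AT3G32990 the members sharing windows with the chloroplast genome turned from 0.774 to 1.11 in comparison 2 and from 0.931 to 1.05 in comparison 3, and without AT3G30665 the most repeated pseudogenes turned from 0.900 to 1.21 in comparison 2. The exclusions of named loci were chosen after seeing the data, and the cause of these moves was not tested. No paired analysis was possible because each genotype had 1 library and no fold came from a test. With a median of 27 reads, most members could not be called by the rule of size at this depth.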
